A study of Mus musculus with 45 samples.

Results

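Branched-chain amino acid and propionate breakdown is represented here by 10 genes of mitochondrial enzymes and their helpers, namely Pcca, Pccb, Mut, Mcee, Mmaa, Bckdha, Bckdhb, Dbt, Ivd and Mccc1. They were found by symbol among 47729 genes in tables of read counts and TPM, and all 10 were among the 14020 genes that had more than 5 reads in at least 6 libraries. Since the 10 genes were chosen with earlier results of both diet comparisons known, and were in part selected on the fold changes and p-values of HFD against RFD themselves, their diet differences are given below as a description. Tuft cells, rare chemosensory cells of the gut epithelium, had been sorted from the small intestine of single male C57BL/6J mice and sequenced in bulk. The study's methods name the sorted cells EpCAM+CD45+Siglec-F+ but also state that cells with CD45 were left out. Its results name them EpCAM+SiglecF+, so the CD45 gate is not clear. The mice arrived at 5 weeks of age, were kept at thermoneutral temperature and were fed a reference diet (RFD) with 10% of energy from fat or a high fat diet (HFD) with 60% of energy from fat, the latter based on lard. The libraries titled STF came from 11 mice on RFD and 11 on HFD, fed for 9 weeks, and those titled LTF from 11 mice on RFD and 12 on HFD. The LTF libraries were taken as the mice that the study fed for 22 weeks, although the labels give 9 weeks for all 45, so that feeding time, age and set of libraries cannot be told apart.

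Valine, leucine and isoleucine lose their amino group first and are then committed to breakdown by the branched-chain ketoacid dehydrogenase complex in the mitochondrial matrix. Leucine carbon leaves as acetyl-CoA and acetoacetate, while valine and isoleucine give propionyl-CoA, which also arises from odd-chain fatty acids and from propionate made by gut microbes. Propionyl-CoA is carboxylated, epimerised and rearranged to succinyl-CoA, an intermediate of the citric acid cycle, and the last of these steps needs vitamin B12.

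Propionyl-CoA carboxylase is built from an alpha subunit that carries biotin, encoded by Pcca, and a beta subunit, encoded by Pccb. The 250 bases before a RefSeq start of each are shown because these subunits belong to a single enzyme and their genes are compared below. Both are given 5′ to 3′ on the strand of the gene, from GRCm38.p6, and capitals mark matches on either strand to a CCAAT box (CCAAT), an SP1 box (GGGCGG) or a nuclear receptor half-site (AGGTCA). The Pccb stretch lies at chr9:101034885-101035134 on the minus strand and the Pcca stretch at chr14:122534078-122534327 on the plus strand, before that of its 2 RefSeq starts which lies next to the start in GENCODE.
Pccb: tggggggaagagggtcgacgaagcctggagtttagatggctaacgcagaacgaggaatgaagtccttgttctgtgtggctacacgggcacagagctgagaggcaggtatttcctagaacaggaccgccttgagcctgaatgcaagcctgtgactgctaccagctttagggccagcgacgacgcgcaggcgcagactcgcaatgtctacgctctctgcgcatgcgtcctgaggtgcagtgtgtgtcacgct
Pcca: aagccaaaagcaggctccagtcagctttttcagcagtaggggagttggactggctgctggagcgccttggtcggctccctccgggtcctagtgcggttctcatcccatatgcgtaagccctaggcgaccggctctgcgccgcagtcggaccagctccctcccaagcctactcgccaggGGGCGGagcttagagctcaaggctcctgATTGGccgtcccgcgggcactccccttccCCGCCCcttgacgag
The Pccb stretch held none of the 3 motifs. In the Pcca stretch an SP1 box began 72 bases before the start, a CCAAT box 44 bases before it and another SP1 box 15 bases before it. Before the other Pcca start, at 122484365, a half-site began 197 bases and a CCAAT box 47 bases upstream. Windows from 250 bases before to 50 bases after a start were taken from RefSeq for 8 of the 10 genes, in 11 windows, and those of Mut and Dbt were not analysed here. A CCAAT box was in 7 of the 11 windows and in 37.4% of all 32851 windows, an SP1 box in 6 of 11 and 35.7%, and a half-site in 3 of 11 and 16.3%. Pcca, Bckdhb and Mmaa had 2 windows each, those of Mmaa overlapping, so the windows are not independent. By gene, a CCAAT box was found for Bckdhb, Ivd, Mccc1, Mcee and Pcca. An SP1 box was found for Bckdhb, Mccc1, Mcee, Mmaa and Pcca, and a half-site for Bckdhb and Pcca. The Pccb window had a GC content of 54.3% and 20 CpG, against a median of 52.7% and 7 CpG over all windows.

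Before the results, the libraries were compared in what could touch them. A library had between 189340 and 4690213 reads in all, with group medians between 1348669 and 1813398, and 2 libraries at 9 weeks, RFD 40 and HFD 50, had fewer than 500000. RFD 3 at 22 weeks had a read for 6789 of the 14020 genes, whereas the other 44 libraries had a read for 10014 to 13599. All 17 tuft cell markers were detected in every group, but their summed level was as low as 405.3 CPM in HFD 80 at 9 weeks, against group medians of 19025 CPM on RFD and 7971 CPM under HFD at 9 weeks and of 20624 and 15992 CPM at 22 weeks. All 5 Paneth cell markers were detected in every group as well. Their sum ranged from 54.6 to 101076 CPM on RFD (median 2460) and from 104.6 to 526913 CPM under HFD (median 26525) at 9 weeks, and from 74.0 to 34972 CPM (median 1378) and 26.4 to 117001 CPM (median 10175) at 22 weeks. The mean log2 CPM of the Paneth markers was higher on HFD by 2.42 at 9 weeks (permutation test, two-sided, p = 0.118) and by 0.81 at the later time (p = 0.555), and that of tuft minus enterocyte markers was lower, with differences of -1.15 (p = 0.132) and -0.63 (p = 0.318). The 14 enterocyte markers had median sums of 14222 and 11209 CPM on RFD and HFD at 9 weeks, and 21112 and 23175 CPM at 22 weeks. Stem and cycling markers had median sums of 395.7 CPM on RFD and 1363 CPM under HFD at 9 weeks and of 128.6 and 249.9 CPM at 22 weeks. Those of enteroendocrine markers were 435.1 and 251.3 CPM and then 683.1 and 183.7 CPM, and those of B cell markers 37.3 and 0.96 CPM and then 8.73 and 6.15 CPM. T cell markers had 17.8 and 0.75 CPM and then 10.3 and 1.81 CPM, and goblet cell markers 2522 and 3307 CPM and then 1346 and 2483 CPM. Eosinophil and macrophage markers had 3.95 and 3.52 CPM and then 3.70 and 3.09 CPM. The M cell marker Gp2 had a median of 0 CPM in every group. Ranges overlapped between diets for all of these lists. The part of these cells in the diet differences below was not tested. In bulk samples, fewer cells of a type and less RNA per cell cannot be told apart. The mouse numbers in the titles fall into 3 series, 1 to 8, multiples of 10, and other numbers from 21 to 64, and differences of mean log2 CPM within these series are given in this order as a check for a batch. RFD 84 at 9 weeks and HFD 65 at 22 weeks fit none of the series and were left out of that check.

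Pccb was the member with the lowest unadjusted p of the edgeR test in both sets, although its adjusted p was under 0.1 at 9 weeks only. CPM, a gene's reads relative to the library total as adjusted by edgeR's TMM factors, is used for levels of a gene across libraries. At 9 weeks Pccb, on chromosome 9 from 100982032 to 101034898, had 26.7 CPM in the lowest, 36.2 in the median and 51.8 in the highest of the 11 RFD libraries, and 55.9, 71.0 and 127.1 CPM under HFD. Every HFD library lay above every RFD library, the lowest on HFD being mouse 62 and the highest on RFD mouse 22. Means were 37.4 ± 8.67 and 81.4 ± 24.04 CPM (SD, n = 11 each), with a log2 fold change of 1.16 (SE 0.20 and adjusted p = 0.00739, by the quasi-likelihood test of edgeR, adjusted over all genes after Benjamini and Hochberg). Pccb was the 1 member of 10 with an adjusted p under 0.1 at 9 weeks, where 3.32% of all genes passed in either direction and 2% were higher. Groups that do not overlap were found for 0.00713% of all genes, which is 1 gene of 14020, Pccb itself. Its differences within the 3 series were 1.57, 0.83 and 0.72. On the deposited TPM scale the groups did overlap, with 5.94 to 21.6 TPM on RFD and 6.19 to 64.9 TPM on HFD, the lowest HFD value being that of mouse 80, the library with the most Paneth markers, and limma on log2(TPM + 1) gave a log2 fold change of 0.88 that did not pass (adjusted p = 0.295).

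At 22 weeks Pccb had 0 CPM in the lowest, 30.3 in the median and 73.0 in the highest of the 11 RFD libraries, and 37.4, 71.7 and 152.6 CPM in the 12 HFD libraries. All 12 HFD libraries were above the RFD median and 5 were above every RFD library, so the groups overlapped, as they did for all but 0.0143% of all genes, and the RFD library at 0 was RFD 3. Means were 33.2 ± 19.6 CPM (SD, n = 11) and 79.3 ± 29.8 CPM (SD, n = 12), and the log2 fold change was 1.24 (SE 0.34 and adjusted p = 0.113 by that edgeR test), with 2.36, 1.22 and 1.11 within the series. None of the 10 members had an adjusted p under 0.1 at 22 weeks, where 0.792% of all genes passed, and 1 member, Pccb, had an unadjusted p under 0.05, as did 10.3% of all genes. With RFD 3 left out, and HFD 80 at 9 weeks, a choice made after the data were seen, Pccb passed at both times with log2 fold changes of 1.152 (adjusted p = 0.0159, edgeR) and 1.11 (adjusted p = 0.0105, edgeR).

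**Figure D1:**
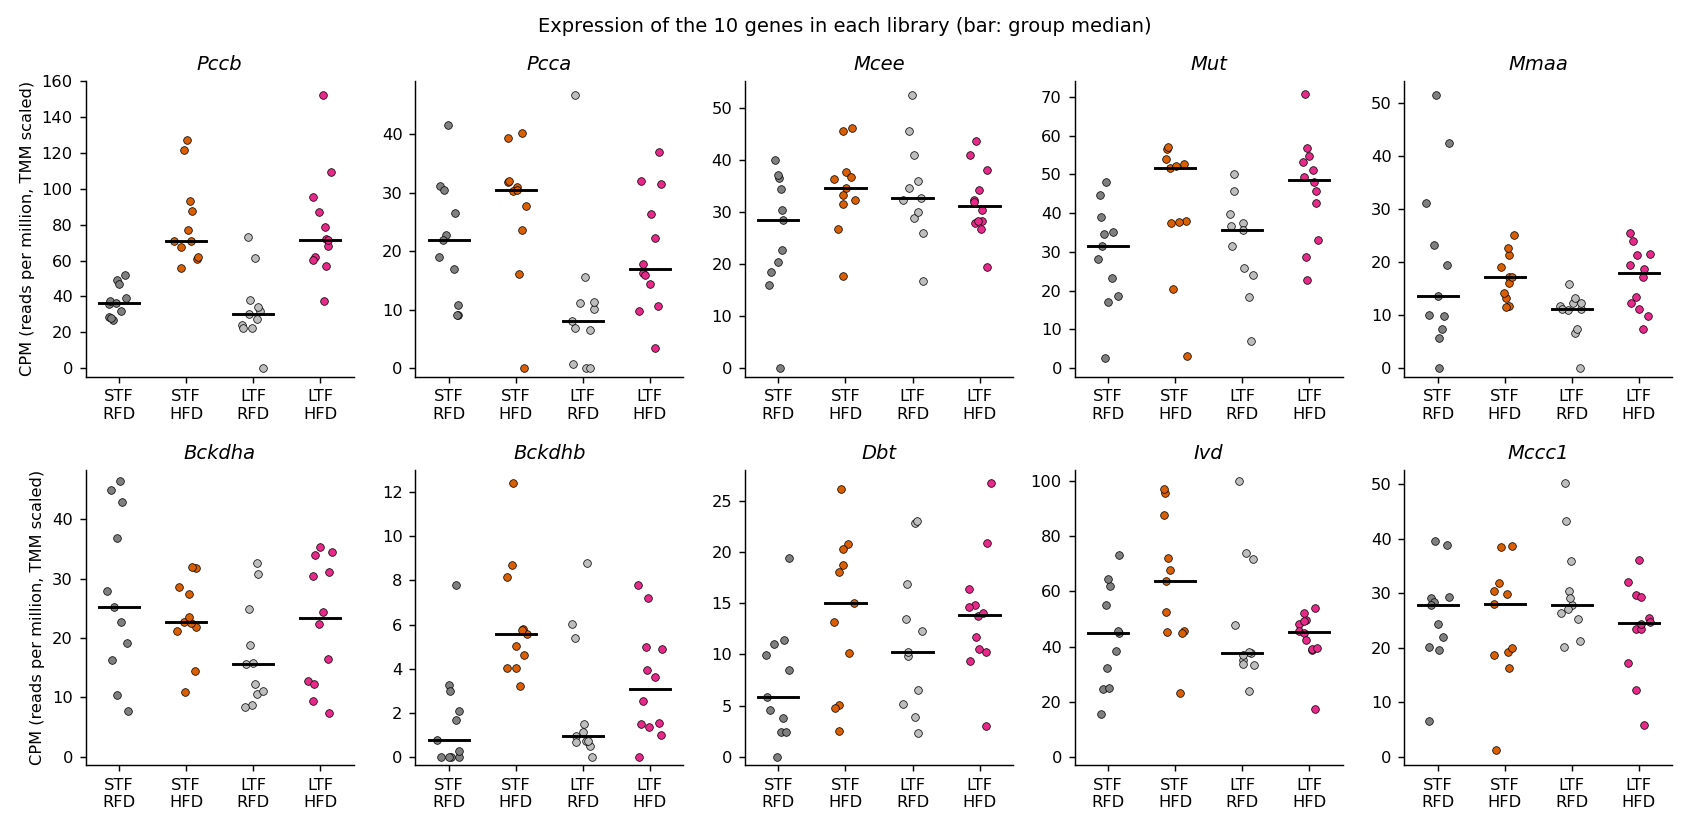
CPM of each of the 10 genes (vertical axes, each with its own range) in the 45 libraries by set and diet, with a point for each mouse and a bar at the group median. In the Pccb panel the HFD medians of 71.0 and 71.7 CPM lie above the RFD medians of 36.2 and 30.3 CPM, and the points of the 9-week groups do not overlap.

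Paneth cell markers had a higher median on HFD at 9 weeks, within the spread between mice, and their level is therefore set beside that of Pccb. Among the STF libraries, RFD 20 had the highest Paneth sum on RFD, 101076 CPM, with 49.0 CPM of Pccb. RFD 1 had the lowest, 54.6 CPM, with 35.7 CPM of Pccb. On HFD the highest was HFD 80, 526913 CPM, with 71.0 CPM of Pccb, and the lowest HFD 64, 104.6 CPM, with 62.2 CPM. In LTF the library with the highest Paneth sum also had the highest Pccb of its group. These were RFD 1, with 34972 CPM and 73.0 CPM of Pccb, and HFD 7, with 117001 and 152.6 CPM. The lowest LTF sums were those of RFD 3, 74.0 CPM with 0 CPM of Pccb, and HFD 80, 26.4 CPM with 68.2 CPM. With the Paneth score as a covariate, also chosen after the data were seen, 18 of 14020 genes had an adjusted p under 0.1 at 9 weeks in place of 466, and Pccb was among them with a log2 fold change of 1.14 (adjusted p = 0.0281, edgeR). The score of tuft minus enterocyte markers as a covariate gave 1.05 (adjusted p = 0.0109, edgeR). As Pccb was chosen from this same comparison, these values describe the libraries, and the part of Paneth cells in the difference was not tested.

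**Figure D2:**
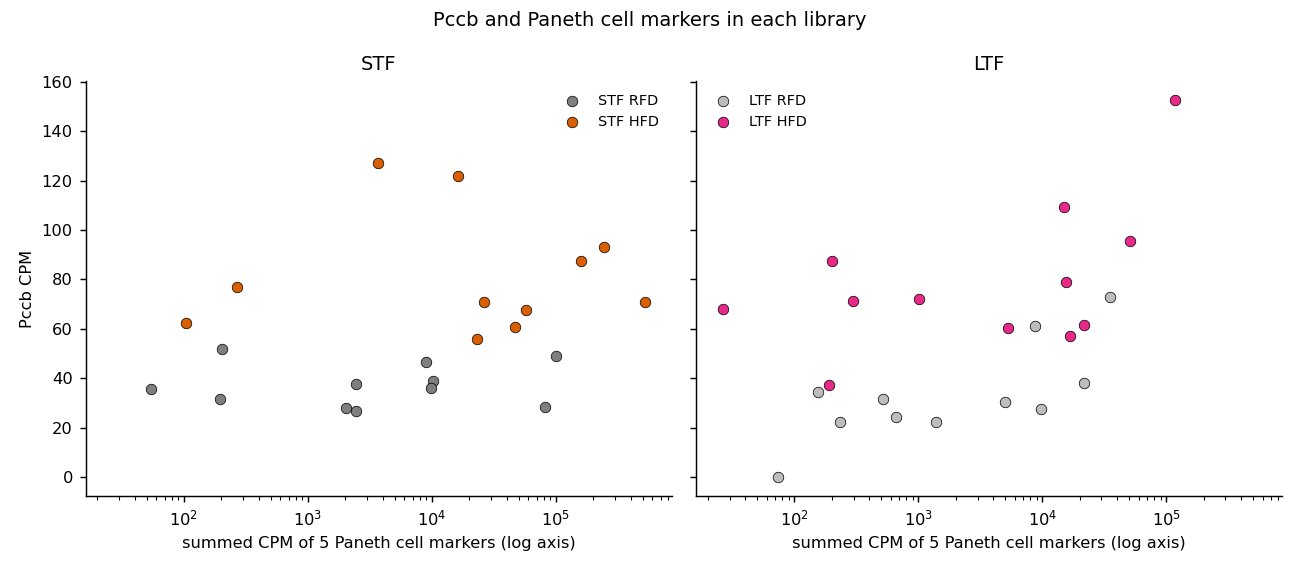
CPM of Pccb (vertical axis) against the summed CPM of the 5 Paneth markers (horizontal log axis) in each library, at 9 weeks (STF, left) and at 22 weeks (LTF, right). At 9 weeks the HFD points start at 55.9 CPM of Pccb, above the highest RFD point at 51.8 CPM.

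Pcca, the partner subunit, on chromosome 14 from 122534324 to 122891100, was more scattered between mice. It had 9.07, 21.8 and 41.6 CPM in the lowest, median and highest RFD library at 9 weeks and 0, 30.4 and 40.3 CPM under HFD, where mouse 64 had no read. At 22 weeks it had 0, 8.04 and 46.8 CPM on RFD, with no read in mice 3 and 30, and 3.45, 17.0 and 37.0 CPM under HFD. The groups overlapped at both times, although 9 of 11 and 11 of 12 HFD libraries were above the RFD median. Log2 fold changes were 0.40 (SE 0.41 and adjusted p = 0.643) and 0.85 (SE 0.53 and adjusted p = 0.613) by the same edgeR test, and within the series they were 0.70, 0.01 and -0.99 in STF and 1.33, 2.30 and 1.02 in LTF. With the Paneth score as covariate the value at 9 weeks was -0.01. Pcca overlaps Ggact on the other strand, a gene with 2202 reads in all against 1808 for Pcca, and as the library kit did not mark strand the reads of the overlap cannot be told apart. A Pcca count that was not whole was found in 19 libraries.

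Mcee, which encodes methylmalonyl-CoA epimerase, is on chromosome 7 from 64392607 to 64412125. It had 0, 28.6 and 39.99 CPM on RFD and 17.8, 34.7 and 46.3 CPM under HFD at 9 weeks (lowest, median, highest), the 0 being in the shallowest library, RFD 40. The later values were 16.8, 32.7 and 52.6 CPM on RFD and 19.5, 31.2 and 43.7 CPM under HFD. Its log2 fold changes were 0.38 (SE 0.27 and adjusted p = 0.482) and -0.12 (SE 0.20 and adjusted p = 0.896), within the spread between mice, and the series gave 0.13, 1.80 and 0.43 in STF and -0.41, 0.23 and 0.03 in LTF.

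Mut encodes methylmalonyl-CoA mutase, the vitamin B12-dependent enzyme that makes succinyl-CoA, on chromosome 17 from 40934685 to 40961988. It had 2.595, 31.6 and 48.0 CPM on RFD and 3.13, 51.6 and 57.0 CPM under HFD at 9 weeks, and 7.01, 35.7 and 50.04 against 22.7, 48.6 and 70.7 CPM at 22 weeks. The HFD libraries above every RFD library were 6 of 11 and 5 of 12. Log2 fold changes of 0.52 (SE 0.36 and adjusted p = 0.456) and 0.50 (SE 0.25 and adjusted p = 0.495) did not pass the edgeR test. Within the series the sign was not the same throughout, with 1.71, 0.50 and -0.59 in STF and 0.49, 1.02 and 0.36 in LTF. Mut overlaps Cenpq on the other strand, a gene with 775 reads in all against 3327 for Mut.

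Mmaa, on chromosome 8 from 79263598 to 79294937, encodes a chaperone of the mutase that takes part in its loading with the B12 cofactor. It had 0, 13.6 and 51.6 CPM on RFD and 11.6, 17.2 and 25.1 CPM under HFD at 9 weeks, so that the HFD libraries lay inside the wide range of the RFD libraries. The later set had 0, 11.2 and 15.9 CPM on RFD and 7.44, 17.95 and 25.6 CPM under HFD, with 7 of 12 HFD libraries above every RFD library. Log2 fold changes were -0.13 (SE 0.44 and adjusted p = 0.916) and 0.66 (SE 0.35 and adjusted p = 0.528) by edgeR, with -0.25, -0.25 and 1.43 in the STF series and 1.65, -0.03 and 0.46 in those of LTF.

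**Figure D3:**
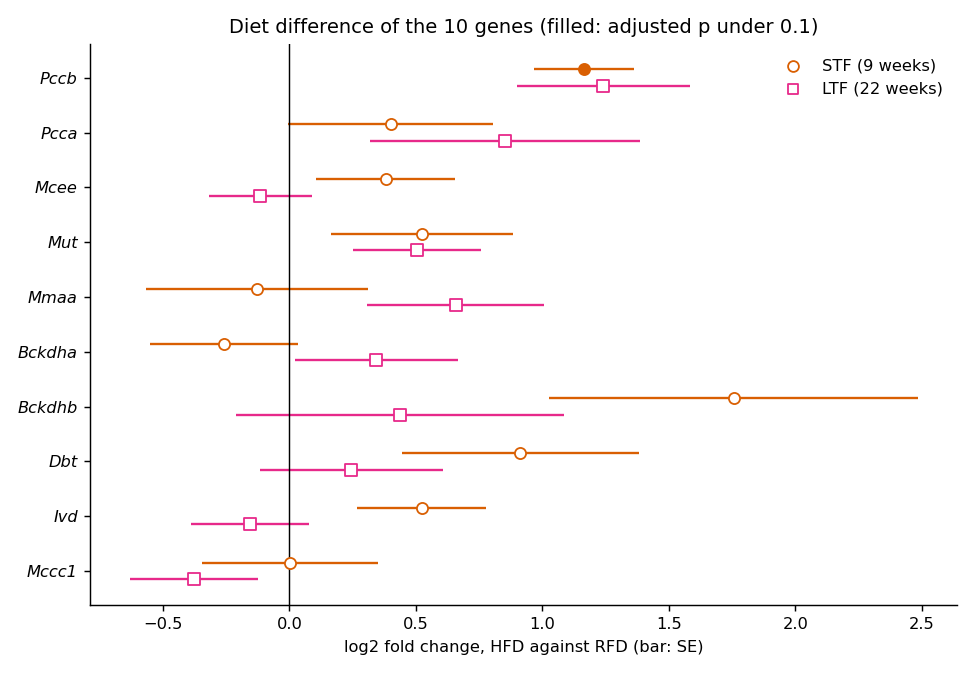
Log2 fold change of HFD against RFD (horizontal axis) for each of the 10 genes, with bars for the SE, at 9 weeks (circles) and 22 weeks (squares). The filled marker, Pccb at 9 weeks with 1.16, is the 1 value with an adjusted p under 0.1, and Bckdhb has the widest bar.

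The branched-chain ketoacid dehydrogenase complex takes its first component, E1, from Bckdha and Bckdhb and its core, E2, from Dbt. Bckdha, the E1 alpha subunit gene on chromosome 7 from 25629946 to 25658981, had 7.78, 25.3 and 46.4 CPM on RFD and 10.95, 22.7 and 31.99 CPM under HFD at 9 weeks. Its values at 22 weeks were 8.44, 15.7 and 32.7 CPM on RFD and 7.39, 23.4 and 35.3 CPM under HFD. Log2 fold changes had opposite signs, -0.26 (SE 0.29 and adjusted p = 0.690) and 0.34 (SE 0.32 and adjusted p = 0.772), and neither was larger than the spread between mice. Series values were -0.37, 0.62 and -0.75 in STF and 0.26, 0.40 and 0.63 in LTF. Bckdha overlaps B3gnt8 on the other strand, and 26 libraries had a Bckdha count that was not whole.

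Bckdhb, the E1 beta subunit gene on chromosome 9 from 83925145 to 84124240, was the member with the fewest reads, 301 over the 45 libraries and at most 26 in any. At 9 weeks it had 0, 0.75 and 7.79 CPM on RFD, with no read in 4 libraries, and 3.20, 5.59 and 12.4 CPM under HFD. All 11 HFD libraries were above the RFD median and 3 above every RFD library, with a log2 fold change of 1.76 (SE 0.73, unadjusted p = 0.0223, adjusted p = 0.197, edgeR). Values at 22 weeks were 0, 0.93 and 8.80 CPM on RFD and 0, 3.06 and 7.80 CPM under HFD, a log2 fold change of 0.44 (SE 0.65 and adjusted p = 0.872). The series gave 1.18, 2.26 and 1.80 in STF and 1.08, 0.67 and 0.27 in LTF. A fold change from counts this low is imprecise, as its SE shows.

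Dbt, on chromosome 3 from 116513070 to 116549981, had 0, 5.83 and 19.4 CPM on RFD and 2.53, 15.01 and 26.1 CPM under HFD at 9 weeks, with a log2 fold change of 0.91 (SE 0.47 and adjusted p = 0.305). Values within the series were 0.69, 1.31 and 0.96 in STF and 0.38, -0.37 and 0.85 in LTF. The LTF values were 2.30, 10.3 and 22.99 CPM on RFD and 2.96, 13.9 and 26.7 CPM under HFD, with a log2 fold change of 0.25 (SE 0.36 and adjusted p = 0.871). The groups overlapped at both times and neither value passed the edgeR test.

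Ivd and Mccc1 act on leucine, as the isovaleryl-CoA dehydrogenase and as the biotin-carrying subunit of methylcrotonyl-CoA carboxylase. Ivd, on chromosome 2 from 118861954 to 118882909, had 15.6, 44.99 and 73.3 CPM on RFD and 23.2, 63.8 and 97.2 CPM under HFD at 9 weeks, a log2 fold change of 0.52 (SE 0.25, unadjusted p = 0.0486, adjusted p = 0.275, edgeR). On the TPM scale its median at 9 weeks was 21.3 on RFD and 17.3 on HFD, and limma on log2(TPM + 1) gave -0.0089 (adjusted p = 0.996). At 22 weeks it had 23.8, 37.7 and 99.9 CPM on RFD, the highest in RFD 3, and 17.3, 45.3 and 54.1 CPM under HFD, with a log2 fold change of -0.16 (SE 0.23 and adjusted p = 0.871). Although 11 of 12 HFD libraries were above the RFD median at this time, the RFD mean of 48.3 CPM exceeded the HFD mean of 43.4 CPM. Its series values were -0.03, 0.86 and 0.81 in STF and -0.20, -0.09 and 0.38 in LTF. Mccc1, on chromosome 3 from 35959312 to 36000678, had 6.59, 27.8 and 39.5 CPM on RFD and 1.26, 28.0 and 38.6 CPM under HFD at 9 weeks, and its log2 fold change of 0.00 (SE 0.35 and adjusted p = 0.998) lay on either side of 0 under other settings. At 22 weeks Mccc1 had 20.1, 27.8 and 50.2 CPM on RFD and 5.89, 24.5 and 36.0 CPM under HFD, with a log2 fold change of -0.38 (SE 0.25 and adjusted p = 0.651), and its series gave 0.30, -0.37 and -0.72 in STF and -0.79, 0.12 and -0.56 in LTF. Mccc1 overlaps Mccc1os on the other strand, with 118 reads in all against 2128 for Mccc1, and further genes with fewer reads.

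Over the 10 members, 8 fold changes were above 0 at 9 weeks and 7 at 22 weeks, as were 47.3% and 47.9% of those of all genes. The median log2 fold change of the members was 0.46 (from -0.26 to 1.76) at 9 weeks and 0.39 (from -0.38 to 1.24) at 22 weeks, beside medians of -0.05 and -0.03 over all genes tested. An unadjusted p under 0.05 was found for 3 members at 9 weeks, Pccb, Bckdhb and Ivd, and for 18% of all genes. These counts describe genes that were chosen with the comparisons known.

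The other 37 genes of the same routes were listed by function, with results of some of them known. At 9 weeks 28 of the 37 fold changes were above 0, with a median of 0.43, and 4 genes rose on HFD, Etfdh, Etfa, Acat1 and Suclg2, while none fell and 33 did not pass, and 12 had an unadjusted p under 0.05, beside 3.32% of all genes passing and 18% with such a p. At 22 weeks 28 were again above 0, with a median of 0.24, none of the 37 passed the edgeR test, and 8 had an unadjusted p under 0.05, beside 0.792% and 10.3% of all genes. The 9-week count was 1 gene, Etfdh, with the Paneth score, with the tuft minus enterocyte score, with the 2 shallow libraries left out, or with HFD 80 left out, and 11 genes with DESeq2.

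Electron transfer flavoprotein takes electrons from Ivd and the other acyl-CoA dehydrogenases, and Etfdh passes them to ubiquinone. Etfdh had 43.7, 64.4 and 84.8 CPM on RFD and 78.9, 141.3 and 211.6 CPM under HFD at 9 weeks, with 10 of 11 HFD libraries above every RFD library. Its log2 fold change was 1.22 (SE 0.20 and adjusted p = 0.0058, edgeR) at 9 weeks and 0.77 (SE 0.27 and adjusted p = 0.271) at 22 weeks. Etfa, the alpha subunit gene, had means of 140.7 ± 59.7 and 273.7 ± 104.2 CPM at 9 weeks (SD, n = 11 each), with a log2 fold change of 0.99 (SE 0.27 and adjusted p = 0.0662, edgeR), and 0.62 (SE 0.20 and adjusted p = 0.230) at 22 weeks. Etfb, the beta subunit gene, had 314.4 ± 114 CPM on RFD and 315.0 ± 87.1 CPM under HFD at 9 weeks, and log2 fold changes of 0.02 (SE 0.22 and adjusted p = 0.973) and 0.11 (SE 0.17 and adjusted p = 0.885).

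In the valine and isoleucine arm, which delivers propionyl-CoA, 8 of 8 fold changes were above 0 in both sets. They lay between 0.16 and 1.12 at 9 weeks and between 0.02 and 0.58 at 22 weeks. Of all genes 47.3% and 47.9% were above 0, and of the leucine arm 4 of 5 and 2 of 5. The electron transfer flavoprotein and succinyl-CoA lists also had 3 of 3 above 0 in both sets. Propionate genes had 4 of 4 and 3 of 4, those of cobalamin handling 5 of 8 and 8 of 8, and those of the dehydrogenase complex 4 of 6 and 5 of 6. Uptake and transamination had 3 of 5 and 1 of 5, and the biotin genes 2 of 5 at both times. Within the valine and isoleucine arm, some signs turned under other settings. The lowest values were -0.05 at 9 weeks and -0.11 at 22 weeks for Hibadh, and -0.10 at 22 weeks for Hibch. Acat1, the mitochondrial thiolase that ends isoleucine breakdown, was the gene of this arm that rose at 9 weeks, from 95.02 ± 52.9 to 193.6 ± 66.1 CPM (SD, n = 11 each), with a log2 fold change of 1.05 (SE 0.29 and adjusted p = 0.0662, edgeR), and it had 0.58 (SE 0.25 and adjusted p = 0.420) at 22 weeks. Downstream of the mutase, Suclg2, a subunit gene of succinyl-CoA ligase, rose from 86.5 ± 49.5 to 151.2 ± 45.2 CPM at 9 weeks, with a log2 fold change of 0.82 (SE 0.26 and adjusted p = 0.0995, edgeR) that was just under the threshold. It passed in 3 of 11 alternatives and did not with the batch term (0.71, adjusted p = 0.106, edgeR). At 22 weeks it had 77.6 ± 74.6 and 80.1 ± 31.7 CPM, a log2 fold change of 0.06 (SE 0.33 and adjusted p = 0.972). The RFD mean there included 254.2 CPM in RFD 3, the highest value of that group. Medians were 43.9 CPM on RFD and 67.5 CPM under HFD, and all 12 HFD libraries were above the RFD median. Under the alternatives its log2 fold change at 22 weeks lay between 0.004 and 0.40, and none passed.

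The remaining partners and regulators of the members did not pass the edgeR test in either set, although at 9 weeks Mccc2, Dld and Bckdk passed with DESeq2 (adjusted p = 0.0393, 0.0647 and 0.0494), Mccc2 and Dld in edgeR with the batch term (adjusted p = 0.0912 and 0.0879) and without the filter (0.0867 and 0.0328), and Dld in 1 fit over both sets (0.0832). Mccc2, the partner of Mccc1, had log2 fold changes of 1.02 (SE 0.33 and adjusted p = 0.108) and 0.78 (SE 0.38 and adjusted p = 0.482), and 10 of 11 and 12 of 12 HFD libraries were above the RFD median. For Dld, the E3 component of the dehydrogenase complex that other complexes share, they were 0.93 (SE 0.31 and adjusted p = 0.119) and 0.51 (SE 0.23 and adjusted p = 0.455). Bckdk, the kinase that switches the complex off, had 0.62 (SE 0.22 and adjusted p = 0.135) and 0.24 (SE 0.25 and adjusted p = 0.807), and Ppm1k, the phosphatase that switches it on, had -0.54 (SE 0.59 and adjusted p = 0.675) and -0.13 (SE 0.43 and adjusted p = 0.952). The mitochondrial aminotransferase Bcat2, which starts the route, had 0.62 (SE 0.41 and adjusted p = 0.436) and 0.67 (SE 0.34 and adjusted p = 0.509). Fold changes of the 8 genes of cobalamin handling, Mmaa included, lay between -0.16 and 1.02 at 9 weeks and between 0.08 and 0.98 at 22 weeks, and those of the 5 biotin genes between -0.80 and 0.08 and between -0.29 and 0.25.

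**Figure D4:**
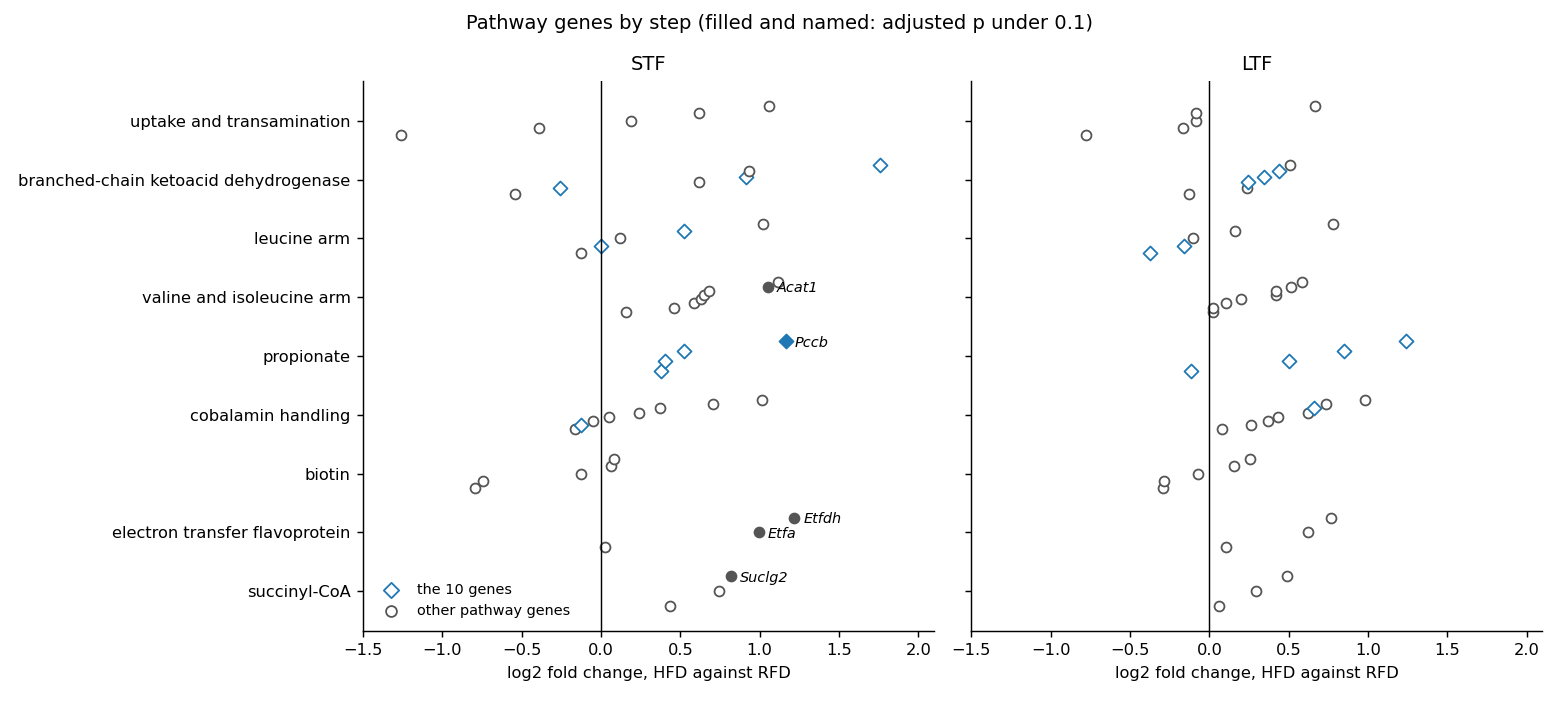
Log2 fold change of HFD against RFD (horizontal axes) for the 47 genes by step of the pathway, at 9 weeks (left) and 22 weeks (right), with diamonds for the 10 genes and circles for the others. Filled and named markers had an adjusted p under 0.1, which were Pccb, Acat1, Etfdh, Etfa and Suclg2 at 9 weeks and none at 22 weeks.

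Whether the diet difference itself changed between the sets was tested in 1 edgeR fit over all 45 libraries. None of the 10 members passed (adjusted p = 0.9999 for each), as 0% of all genes did, and no member had an unadjusted p under 0.05, where 3.22% of all genes had one. For Pccb the difference of the fold changes, 22 weeks minus 9 weeks, was 0.12 with a 95% interval from -0.67 to 0.90, and for Mut it was 0.03, from -0.83 to 0.89. Wider intervals were found for Bckdhb, from -3.09 to 0.59, and for Pcca, from -0.87 to 1.84. The lowest unadjusted p was that of Ivd, 0.0621, with -0.65 and an interval from -1.31 to 0.02.

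On RFD alone, the LTF libraries were compared with the STF libraries in the same fit, and none of the 10 members passed, while 1.46% of all genes did and 0.478% of all genes were lower in LTF. Bckdha was lower in LTF by a log2 difference of -0.69 (SE 0.30, unadjusted p = 0.0253, adjusted p = 0.385, edgeR) and Mmaa by -0.89 (SE 0.40, unadjusted p = 0.032, adjusted p = 0.425), and 10.2% of all genes had an unadjusted p under 0.05. For Pccb the log2 difference on RFD was -0.16, with a 95% interval from -0.73 to 0.41.

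Levels between genes were compared in TPM, which takes gene length into account, as the median of the 4 group medians. Mcee was highest with 88.4 TPM, with group medians from 53.0 to 114.5 TPM. Pccb with 20.1, Ivd with 18.6, Bckdha with 10.6, Pcca with 9.18, Mccc1 with 8.82 and Mut with 8.49 TPM followed. Mmaa with 4.53, Dbt with 3.54 and Bckdhb with 1.17 TPM were the lowest. The ranges over mice of neighbours in this order overlapped in each group, except for Mcee and Pccb on RFD at 22 weeks, where the lowest Mcee value was 57.8 TPM and the highest Pccb value 34.9 TPM. The beta subunit gene of the carboxylase exceeded the alpha subunit gene in all 4 group medians, with 14.3 against 9.08 TPM and 25.4 against 11.1 TPM on RFD and HFD at 9 weeks and 14.7 against 4.39 TPM and 35.2 against 9.28 TPM at 22 weeks.

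Genes whose products form 1 enzyme were compared across mice, after the mean of each group was taken out so that diet did not enter, in 5 pairs. Pcca and Pccb had Pearson's r = 0.506 and Spearman's rho = 0.521 over the 45 libraries (permutation tests within groups, two-sided, p = 0.00095 and 0.00027, adjusted p = 0.00475 and 0.00135 over the 5 pairs). Without HFD 64 at 9 weeks and RFD 3 at 22 weeks, the libraries farthest from the median of Pcca, r was 0.437. RFD 30 at 22 weeks, also without a Pcca read, was as far as RFD 3, and with it left out in place of RFD 3 r was 0.656, and 0.542 with all 3 left out. The relation did not hold within every number series, with r = 0.87 over 15 libraries, -0.196 over 13 and 0.286 over 15. With the tuft minus enterocyte score taken out, r was 0.555 (permutation test, adjusted p = 0.0044) but rho 0.356 (adjusted p = 0.0744). In that setting r was 0.337 without HFD 64 at 9 weeks and RFD 3 at 22 weeks. In TPM r was 0.495 (permutation test, adjusted p = 0.0199) and rho 0.344 (adjusted p = 0.0665). The Paneth score was not taken out in any setting, and gene pairs outside these 5 were not compared. Whether the relation is particular to the subunits was therefore not tested. Bckdha and Bckdhb had r = 0.343 (permutation test, adjusted p = 0.0906) and rho = 0.343 (adjusted p = 0.0582), and without RFD 40 at 9 weeks and HFD 33 at 22 weeks r was 0.271. By set, r was 0.0382 over the 22 STF and 0.571 over the 23 LTF libraries, a difference that was not tested. For Bckdha and Dbt r was 0.303 (permutation test, adjusted p = 0.0906) but rho 0.104 (adjusted p = 0.507), and r fell to 0.0742 without RFD 40 at 9 weeks and HFD 33 at 22 weeks, on which it therefore rests. Bckdhb and Dbt had r = 0.16 (permutation test, adjusted p = 0.326) and rho = 0.151 (adjusted p = 0.431). Mccc1 and Mccc2 had r = 0.198 (permutation test, adjusted p = 0.182) and rho = 0.339 (adjusted p = 0.0582), and rho was 0.11 (adjusted p = 0.474) with the tuft minus enterocyte score taken out and 0.171 (adjusted p = 0.274) in TPM.

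**Figure D5:**
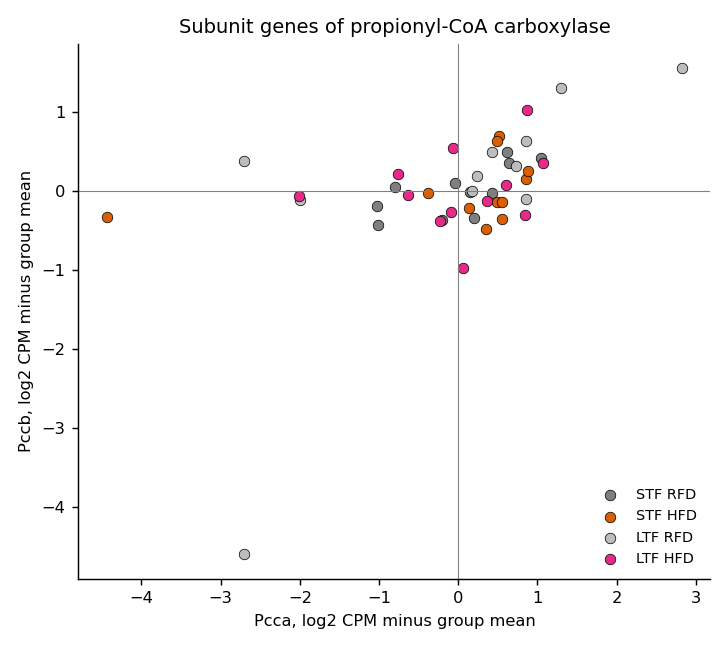
Log2 CPM of Pccb (vertical axis) against that of Pcca (horizontal axis) in each of the 45 libraries, after subtraction of the group mean, coloured by set and diet. The points give r = 0.506, and RFD 3 at 22 weeks lies alone at the lower left, without reads of either gene.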

How the data were processed

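RNA of sorted tuft cells was amplified by Smart-seq2, which keeps no strand, and sequenced for 45 mice. Per the labels and the study's methods the authors trimmed reads with Cutadapt 1.15, aligned them with STAR 2.6.0 and estimated reads per gene with RSEM on GRCm38. The deposited expected counts are estimated counts per gene before any filter, of which 8.79% of those above 0 were not whole because RSEM divides ambiguous reads. The deposited TPM values are scaled for gene length and library size by RSEM. Another 24 count and 24 TPM columns matched no labelled sample and were not used. The step in which the authors weighed counts by estimated cell proportions and their SAM-seq test were not repeated.

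Counts were rounded, and the 14020 genes with more than 5 reads in at least 6 libraries were tested with edgeR 4.0.16 in R 4.3.3 (TMM, robust quasi-likelihood test), with a fit per set for diet and 1 fit over 45 libraries for differences between sets. Benjamini-Hochberg adjustment ran over all genes, with adjusted p under 0.1 as the threshold. CPM use TMM factors over all 45 libraries, and correlations use log2 CPM with a prior count of 2 and 100000 permutations. Groups and mouse numbers come from the titles. Mice shared cages of 4 and were killed over 3 days, a cage of each group per day. Which mice shared a cage or day is not given in the sources used here, so mice were treated as independent, and p-values do not allow for cage or day. Symbols and positions are from GENCODE M21. Alternatives used DESeq2 1.42.0 and limma 3.58.1 on log2(TPM + 1).

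The members and the pathway lists were chosen with earlier results of these data known. The genes named are the 10 members, each other pathway gene with adjusted p under 0.1 in either set, and Mccc2, Dld, Bckdk, Ppm1k, Bcat2, Etfa, Etfb and Etfdh.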

Additional observations from a re-analysis of the deposited data

How the results depend on the processing

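Depth limits Bckdhb most, with at most 26 reads in a library. Pccb was higher on HFD in both sets under all 11 alternatives, with adjusted p from 3.09e-06 to 0.295 at 9 weeks and from 0.0105 to 0.165 at 22 weeks. The number of members that passed at 9 weeks was 1, and 0 with limma on TPM. At 22 weeks it was 0, and 1 without the filter on low counts, with a batch term for the number series, in 1 fit over 45 libraries, with DESeq2, with the Paneth covariate, or without RFD 3 (22 weeks) and HFD 80 (9 weeks), the last 2 being alternatives chosen after the data were seen. Of the other 37 genes 4 passed at 9 weeks, against 8 without the filter, 11 with DESeq2, 0 with limma on TPM, and 1 with either covariate, without the 2 libraries under 500000 reads, or without HFD 80. At 22 weeks 0 passed, and 1, Etfdh, with DESeq2. Over all genes, the counts that passed at 9 and 22 weeks were 466 and 111, against 1505 and 429 without the filter, 1534 and 351 with DESeq2, 9 and 51 with limma on TPM, 456 and 185 with the batch term (2 libraries of no series left out), 115 and 128 with the tuft minus enterocyte covariate, 18 and 117 with the Paneth covariate, 290 and 111 without the shallow libraries, 69 and 241 without RFD 3 and HFD 80, and 684 and 63 in 1 fit over 45 libraries.

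Some signs turned. For Mccc1 at 9 weeks the log2 fold change was -0.044 with DESeq2's size factors, -0.027 with the batch term, -0.30 with the tuft minus enterocyte covariate, -0.034 without the shallow libraries, -0.039 in 1 fit, -0.031 without AY036118 and Lars2, -0.11 with the Paneth covariate, -0.069 without HFD 80, -0.040 with DESeq2 and -0.26 with limma. At the same time limma gave -0.0089 for Ivd, in place of 0.52, and 0.084 for Mmaa, and the Paneth covariate gave -0.0125 for Pcca, in place of 0.40. Etfb at 9 weeks gave -0.078 without the shallow libraries, -0.0054 in 1 fit, -0.0017 with DESeq2 and -0.054 with limma. The difference of the diet effect between the sets became -0.10 for Pccb and -0.21 for Mut without RFD 3 and HFD 80, and for Mut -0.019 with DESeq2's size factors and with DESeq2, -0.045 with the batch term and -0.013 without AY036118 and Lars2. Without RFD 3 the set difference on RFD was -0.046 for Ivd and 0.0043 for Pccb. The correlation of Bckdha fell to 0.305 with Bckdhb (permutation test, adjusted p = 0.173) and 0.153 with Dbt (adjusted p = 0.409) without the shallow libraries. The cause of these changes was not tested.

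STF and LTF libraries of a diet share 16 mouse numbers, while RFD and HFD share none within a set. Correlations of the deviations from the group means ran from -0.384 to 0.383, with 2 of 16 over 0.1 and 1 library best with its own number, so the numbers were not taken as pairs. With the number as a replicate block no member passed in the comparison of the sets, the difference of the diet effect for Mut was -0.27, and the genes that differed between the sets on RFD went from 204 to 14.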
